A study of Mus musculus with 3 samples.

Results

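The data described here are the counts of 34 transcripts of the kidney tubule, among 32886 genes, in immune cells sorted from the mouse kidney. The 34 gene columns were taken from a list of names and grouped by the nephron segment that is known as their main site: 18 genes of the proximal tubule, Aqp1 of the proximal tubule and thin descending limb, 4 genes of the thick ascending limb, 5 of the distal convoluted and connecting tubule, 4 of collecting duct principal cells and Atp6v1g3 of intercalated cells. Slco4a1, an organic anion transporter, was given no segment. All 34 columns were present in the table. Male C57BL/6J mice aged 10 weeks, labelled wt and untouched, were the source of all samples, so no group carried a mutation or received an agent. From their kidneys the cortex, the outer (OM) and the inner medulla (IM) were dissected, digested and sorted for living cells with CD45 on their surface, the common antigen of leukocytes. Droplet-based single-cell RNA sequencing (scRNA-seq) at Aachen, Bonn and Hamburg gave 20266 cells. The clusters, 23 in number, carry the names in the deposited table. The cells of 1 compartment of 1 dataset are called a library here, which gives 9 libraries and 3 datasets for each compartment. How many mice made up a library was not given in the sources used here, and facility, mice and the treatment of the values differed together between datasets, as did the kit version between Aachen and the other facilities, and these cannot be told apart.

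The nephron filters blood in the glomerulus and then works on the filtrate segment by segment. The proximal tubule, which lies in cortex and outer stripe, takes back most of the salt, glucose, phosphate, amino acids and filtered protein. The thick ascending limb takes up salt without water, the distal convoluted and connecting tubule tune calcium and sodium, and the collecting duct passes from cortex to papilla and sets the final water content. None of these cells carries CD45, so their transcripts were not what the sort was set to collect. A unique molecular identifier (UMI) marks 1 captured molecule, and values below are UMIs, UMIs scaled to the total UMIs of the same cells (counts per-million, CPM), or UMIs per 1000 cells.

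The promoters of the 6 proximal tubule genes that had the most UMIs among those with a RefSeq window are shown. Slc34a1 encodes the sodium phosphate cotransporter of the brush border, Miox the enzyme that breaks down myo-inositol, Akr1c21 a steroid reductase, Kap the kidney androgen-regulated protein, Gpx3 the secreted glutathione peroxidase and Keg1 an acyltransferase-like protein of the kidney. Each window runs from 250 bases before to 50 bases after the RefSeq start of the gene, on the strand of the gene, in GRCm38.p6: chr13:55399398-55399697 (+), chr15:89334223-89334522 (+), chr13:4573825-4574124 (+), chr6:133853618-133853917 (-), chr11:54902604-54902903 (+) and chr19:12695540-12695839 (+), in this order. Capitals mark the HNF1 motif GTTAAT on either strand, HNF1 being a factor of kidney epithelium.
Slc34a1: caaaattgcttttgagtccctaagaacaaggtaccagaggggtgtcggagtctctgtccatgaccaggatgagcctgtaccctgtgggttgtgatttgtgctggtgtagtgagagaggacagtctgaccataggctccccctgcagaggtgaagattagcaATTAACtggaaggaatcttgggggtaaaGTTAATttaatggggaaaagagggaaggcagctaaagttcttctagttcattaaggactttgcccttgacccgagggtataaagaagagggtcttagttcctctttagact
Miox: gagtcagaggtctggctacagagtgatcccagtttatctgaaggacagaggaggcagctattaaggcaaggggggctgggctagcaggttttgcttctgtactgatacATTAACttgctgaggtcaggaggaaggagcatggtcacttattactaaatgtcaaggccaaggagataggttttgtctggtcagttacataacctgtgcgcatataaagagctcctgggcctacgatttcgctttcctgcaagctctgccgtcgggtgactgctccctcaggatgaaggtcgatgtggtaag
Akr1c21: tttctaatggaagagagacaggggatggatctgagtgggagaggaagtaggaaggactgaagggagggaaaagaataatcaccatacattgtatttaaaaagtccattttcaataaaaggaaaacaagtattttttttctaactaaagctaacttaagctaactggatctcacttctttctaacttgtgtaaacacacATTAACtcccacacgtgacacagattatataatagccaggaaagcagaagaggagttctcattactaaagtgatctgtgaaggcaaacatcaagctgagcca
Kap: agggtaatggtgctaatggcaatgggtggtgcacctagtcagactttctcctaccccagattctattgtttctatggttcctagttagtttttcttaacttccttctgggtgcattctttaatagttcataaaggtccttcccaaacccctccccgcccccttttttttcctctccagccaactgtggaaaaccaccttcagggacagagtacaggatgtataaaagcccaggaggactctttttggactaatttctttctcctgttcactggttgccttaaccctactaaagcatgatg
Gpx3: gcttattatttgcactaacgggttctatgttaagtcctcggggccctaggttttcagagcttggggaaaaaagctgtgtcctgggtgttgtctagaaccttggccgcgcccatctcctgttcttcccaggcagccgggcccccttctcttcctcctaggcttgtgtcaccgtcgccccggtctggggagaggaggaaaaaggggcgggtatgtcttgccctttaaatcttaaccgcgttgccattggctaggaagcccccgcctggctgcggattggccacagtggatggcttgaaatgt
Keg1: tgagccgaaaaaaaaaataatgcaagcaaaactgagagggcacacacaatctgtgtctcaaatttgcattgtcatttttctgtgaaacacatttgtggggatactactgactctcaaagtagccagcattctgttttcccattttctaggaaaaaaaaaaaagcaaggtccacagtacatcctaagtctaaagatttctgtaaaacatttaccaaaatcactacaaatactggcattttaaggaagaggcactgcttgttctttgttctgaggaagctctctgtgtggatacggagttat
The Slc34a1 window held the motif on both strands, starting 61 bases before the gene start on the strand of the gene and 89 bases before it on the opposite strand. The Miox and Akr1c21 windows held it once, 142 and 52 bases before the start, both on the opposite strand. The Kap, Gpx3 and Keg1 windows held none. RefSeq windows matched 29 of the 34 genes, and 9 of these held GTTAAT on either strand, 6 of them among 15 proximal tubule genes, against 8.24% of 27025 genes with a window. The HNF4 motif CAAAGTCCA was in the windows of 0 of the 29 and of 0.555% of all genes. These matches describe letters and not binding.

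The 9 libraries held 2.12e+06 to 1.53e+07 UMIs, with a median of 744 to 1270 UMIs per cell at Aachen, 3210 to 3505 at Bonn and 2802 to 3067 at Hamburg. The named immune classes matched their markers: the summed level of 6 resident macrophage markers, such as C1qa and Csf1r, was 17150 to 25350 CPM in resident macrophages of the 9 libraries and 35.4 to 2201 CPM in T cells. Ptprc, which encodes CD45, had a UMI in 33.6% of Aachen cells, 87.6% of Bonn cells and 85.3% of Hamburg cells outside the cluster Undefined. Of 20042 barcodes of 16 letters, 219 were found in more than 1 library. At Aachen 0 to 68 genes per barcode group were seen in exactly 1 cell, against 544 to 735 seen in exactly 3 cells, so a gene listed at 0 there may have been seen in too few cells to be kept, and no upper limit is given for such zeros. At Bonn 179 to 321 genes were seen in exactly 1 cell, against 548 to 605 in exactly 3. At Hamburg it was 1836 to 1880 against 586 to 632. A gene listed at 0 in a whole Bonn library may therefore carry the same limit.

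The 34 transcripts had 21041 UMIs in all, or 356 CPM. They were spread very unevenly over the libraries. In cortex, OM and IM they made up 80.6, 113 and 130 CPM at Aachen, 145, 432 and 1709 at Bonn, and 75.9, 70.7 and 67.9 at Hamburg. The Bonn IM library alone held 15030 of the UMIs. It stood above the other 8 libraries, and it is also the compartment in which no proximal tubule normally runs. Proximal tubule genes made up 97.7% of the nephron UMIs of Bonn IM, 92.9% of Bonn OM and 61.6% of Bonn cortex. At Hamburg their share was 33.9, 43.1 and 40.0% in cortex, OM and IM, and at Aachen it was 80.1, 38.3 and 86.4%. Kap was the transcript with the most UMIs, 6640 or 31.6% of the total, followed by Gpx3 with 3102 and Miox with 1686.

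**Figure D1:**
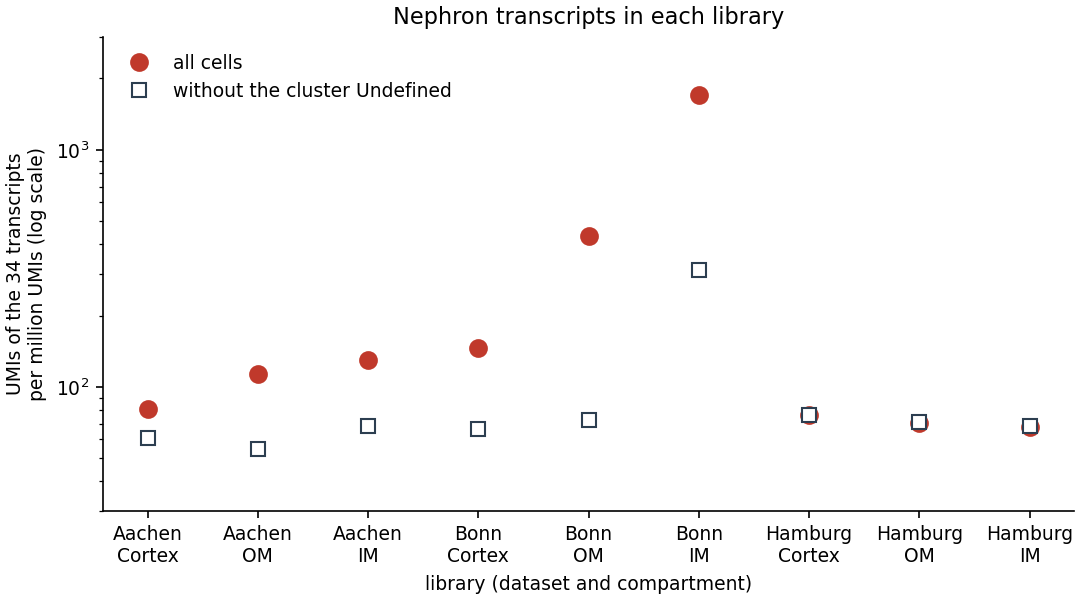
Summed level of the 34 nephron transcripts in CPM (log scale) in each of the 9 libraries, over all cells (circles) and without the cluster Undefined (open squares). Bonn IM falls from 1709 to 313 CPM without Undefined but stays above the other 8 libraries, which then lie between 54.4 and 76.0.

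A small cluster carried most of these molecules. Undefined, the cluster without a cell type name, held 69 cells (13 from Aachen, 43 from Bonn and 13 from Hamburg) and 71.0% of all nephron UMIs. In Bonn IM 28 cells of Undefined, with 2.86% of the UMIs of the library, held 12360 of its 15030 nephron UMIs. The cluster was made from the genes of these same cells, so its difference from other clusters is given as a description, without a test. A Ptprc UMI was found in 7 of the 69 cells. Of the 13 Aachen cells of Undefined 7 held C1qa. The Hamburg cells of Undefined differed from those of the other facilities: none had more than 1.92 nephron UMIs, 5 of 13 had Ptprc, and 7 of 13 had Cd79a, a part of the B cell receptor. Without Undefined, the libraries other than Bonn IM held 54.4 to 76.0 CPM of nephron transcripts and Bonn IM held 313.

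Within Undefined, 27 cells had 100 or more nephron UMIs, 19 of them from Bonn IM, 4 from Bonn cortex, 3 from Bonn OM and 1 from Aachen IM. They had a median of 521 nephron UMIs and 8310 UMIs in all, and a Ptprc UMI was found in 1 of the 27. In 26 of the 27 cells the proximal tubule genes made up at least 90% of the nephron UMIs. The threshold of 100 UMIs, and those for Kap below, were chosen after the values had been seen. Lists of further genes showed the same segment in these 27 cells: 25 other proximal tubule genes had 4260 UMIs and 17 other genes of the loop of Henle, which include Fxyd2 and Ckb of wider expression, had 2139. In comparison, 16 other collecting duct genes had 112 UMIs, 10 general epithelial genes 110, 9 endothelial genes 20, 7 other distal genes 10, and 5 red cell genes, 4 of them present, 1. All 20 UMIs of the endothelial list were of Aqp1, which is also a gene of the proximal tubule. Genes of podocytes, of stroma and muscle and of the urothelium had 0 UMIs there.

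The proximal tubule cells fell into those with much and those with hardly any Kap. Of the 26, 18 had 30 or more Kap UMIs (37 to 738, median 228.5) and 7 had fewer than 5 (0 to 3, median 1), so a single cell lay between. Slc5a2, the glucose carrier of the early, convoluted proximal tubule, had a UMI in 5 of the 7 cells low in Kap, with a median of 8 UMIs, and in 2 of the 18 cells rich in Kap. Slc7a13, an amino acid carrier of the late, straight proximal tubule, showed the opposite pattern, with a UMI in 13 of the 18 cells and in 0 of the 7. The other straight-tubule gene, Cyp2e1, a cytochrome P450, was found in 13 of 18 and 2 of 7 cells. Slc34a1 had a UMI in all 7 cells low in Kap (3 to 75, median 39) and in 13 of the 18 others (median 23.5). Among the 18, the 13 with Slc34a1 and the 13 with Cyp2e1 were the same cells, but not those with Slc7a13. The 2 cells with the most Kap, 701 and 738 UMIs, held 16 and 17 of Slc7a13 but 0 of Slc34a1 and Cyp2e1. The cells rich in Kap were thus mixed themselves. Gpx3 was higher in the cells low in Kap, with a median of 151 against 44 UMIs. The endocytic receptor Lrp2 (megalin) was found in all cells of both kinds, with medians of 11 and 7 UMIs. The cells rich in Kap came from Bonn IM (14), Bonn cortex (3) and Bonn OM (1). The 7 cells low in Kap came from Bonn IM (5) and Bonn OM (2). These origins and the gap between the groups depend on the threshold of 100 nephron UMIs. Below it, Bonn cortex cells of Undefined with 63 and 65 nephron UMIs held 0 and 2 of Kap, and 1 with 46 held 27.

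Other segments were seen in single cells of Undefined. A Bonn cortex cell with 130 nephron UMIs held 108 of S100g and 11 of Calb1, both calcium-binding proteins of the distal convoluted and connecting tubule, and 5 of Atp6v1g3, a proton pump subunit. An Aachen OM cell held 75 UMIs of Aqp2, the vasopressin-regulated water channel of principal cells, and 21 of Fxyd4, together with 11 of the macrophage gene C1qa. Another pair of Aachen OM cells held 45 and 7 UMIs of Aqp1, the water channel of proximal tubule, thin limb and also of endothelium, and the endothelial list, which includes Aqp1, had 52 and 16 UMIs in them. An Aachen cortex cell held 13 UMIs of Atp6v1g3 and no other nephron transcript. A Bonn IM cell held 16 UMIs of Umod, the secreted uromodulin of the thick ascending limb, among its 24 nephron UMIs. Each of these is 1 cell and gives no replicate.

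**Figure D2:**
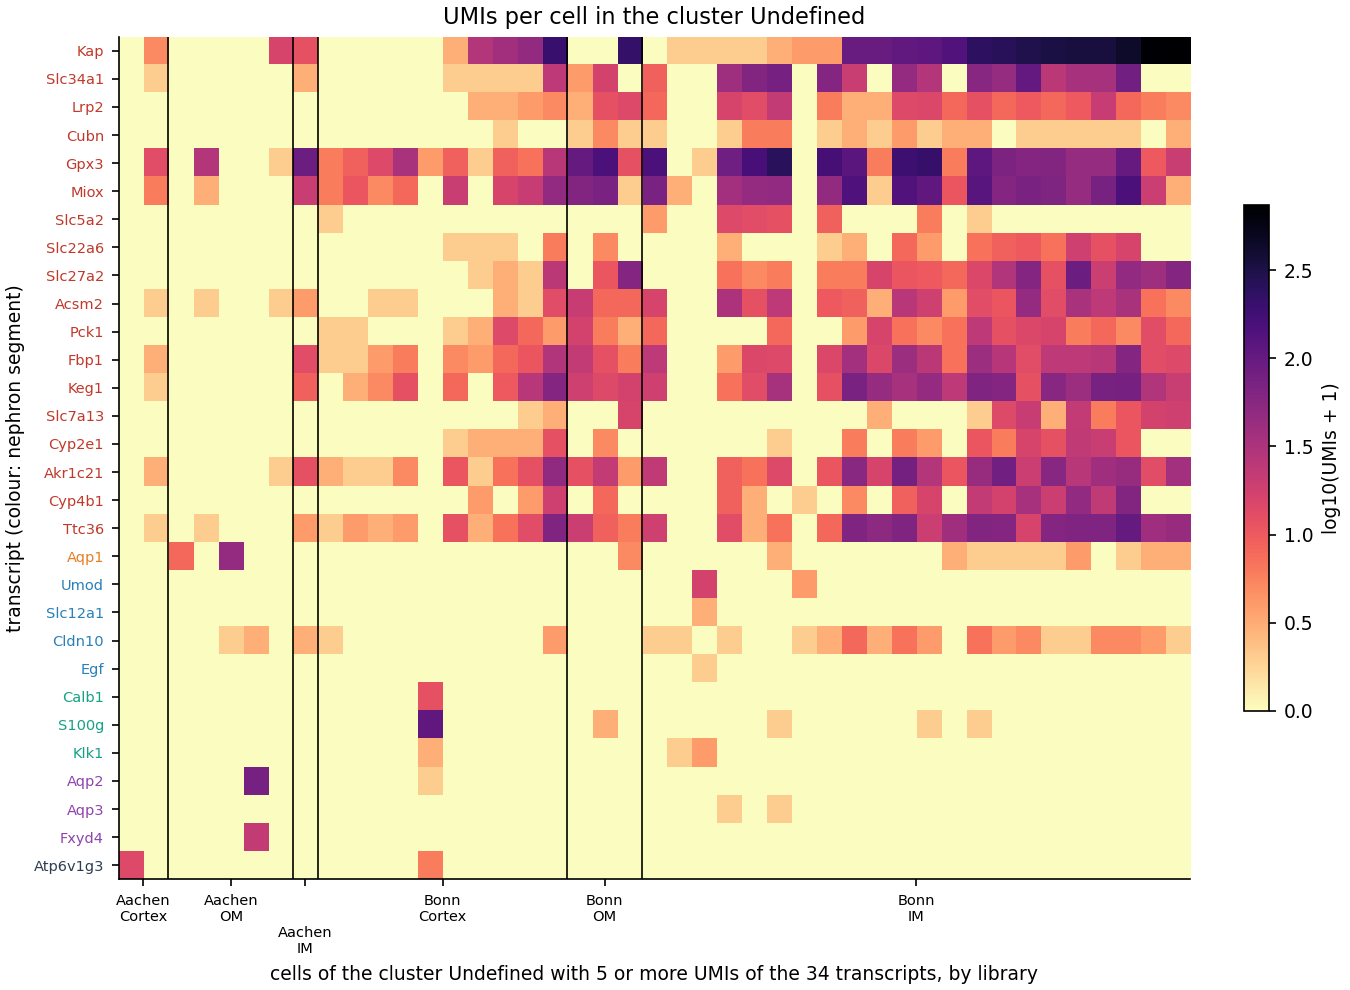
Nephron transcripts (rows, coloured by segment) in the 43 cells of Undefined with 5 or more of their UMIs (columns, grouped by library and ordered by Kap), as log10(UMIs + 1). Most columns are dark for the proximal tubule genes at the top, Kap-rich cells lie to the right within Bonn IM, and single columns show S100g, Aqp2, Aqp1, Umod or Atp6v1g3.

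Outside Undefined, cells rich in nephron transcripts were few and of 2 kinds. Of 190 cells with 5 or more nephron UMIs, 147 lay outside Undefined and 81 of these were in Bonn IM. Only 18 of them had 20 or more, of which 16 were plasmacytoid dendritic cells (pDC) with Klk1, described below. Of the others, 1 was a Macrophage_2 cell of Hamburg IM with 25.6 UMIs of Umod and 9.5 of Slc12a1, the sodium-potassium-chloride carrier of the thick ascending limb, beside 90.5 of C1qa. The other was a Malat+_Macrophage cell of Aachen IM with 15 UMIs of Gpx3, 2 of Keg1, 2 of Akr1c21 and 14 of C1qa. No doublet caller was run, and whether these droplets held more than 1 cell was not tested.

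In Bonn IM nearly every kind of immune cell carried proximal tubule transcripts, at a similar number per cell. The 18 proximal tubule genes gave 0.878 to 1.57 UMIs per cell (median 1.29) over 14 clusters with at least 20 cells. The median depth of the same clusters ran from 1646 to 7538 UMIs, so the number per cell varied 1.79-fold over a 4.58-fold range of depth, and the level in CPM varied 3.83-fold, from 150 to 575. Neutrophils, which were shallow, had 1.57 UMIs per cell (95% Poisson interval 1.14 to 2.11, 28 cells) and cDC2, the deepest of these clusters, had 1.22 (1.02 to 1.44, 115 cells). B_cell_1 had 1.38 (1.27 to 1.49, 475 cells) and Macrophage_1 1.43 (1.29 to 1.57, 285 cells). The lowest was Malat+_Macrophage with 0.878 (0.635 to 1.18, 49 cells). The interval held the median of the clusters in 12 of the 14. These intervals, and all intervals and limits below, cover counting error only. In the other 8 libraries the median of the clusters was 0.015 to 0.207 UMIs per cell.

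The share of cells with a proximal tubule UMI in Bonn IM was 68.1% of resident macrophages (exact 95% binomial interval 64.3 to 71.7%, median depth 4735 UMIs), 65.0% of T cells (59.2 to 70.4%, 3264 UMIs), 68.4% of B cells (64.2 to 72.3%, 2876 UMIs) and 57.1% of neutrophils (37.2 to 75.5%, 1865 UMIs). In Bonn cortex the share was 7.79% of resident macrophages and 4.53% of lymphocytes, and in Bonn OM 16.7 and 11.9%. After each cell was thinned to 500 UMIs, the share in Bonn IM was 15.9% of resident macrophages and 20.6% of lymphocytes, and in Bonn cortex 0.186 and 1.09%. No cell of these Bonn libraries fell below 500 UMIs.

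**Figure D3:**
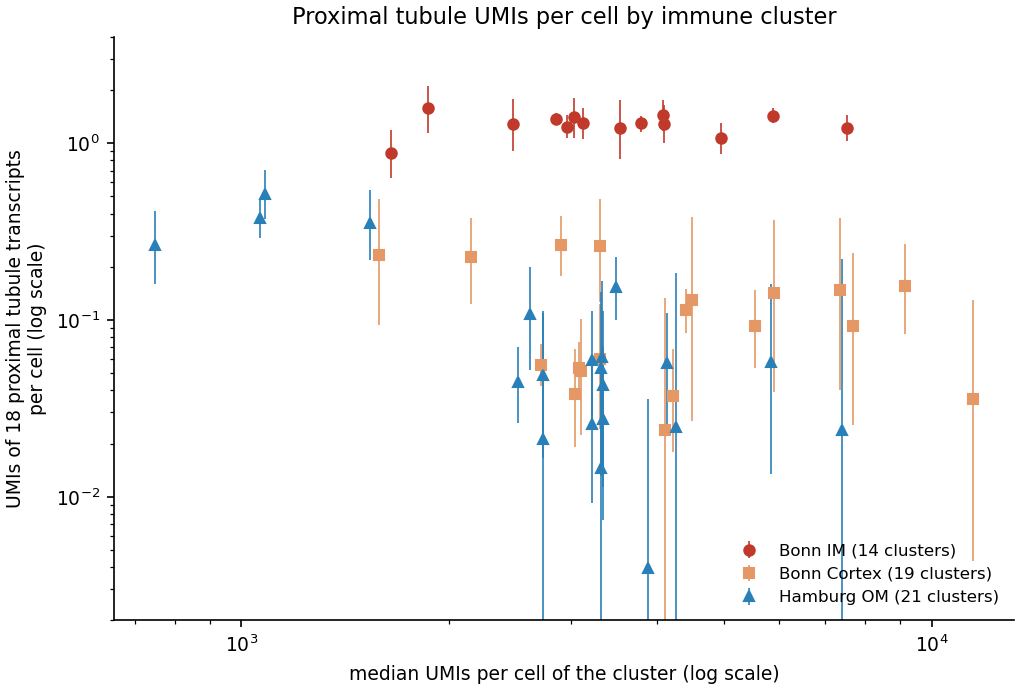
UMIs of the 18 proximal tubule transcripts per cell (log scale, bars are 95% Poisson intervals of the summed counts) against the median UMIs per cell (log scale) of each immune cluster with at least 20 cells and 1 or more such UMIs, in Bonn IM (14 clusters), Bonn cortex (19) and Hamburg OM (21). Bonn IM clusters lie on a level band from 0.878 to 1.57 over the whole range of depth, and the clusters of the other libraries lie below it.

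The mixture of proximal tubule transcripts differed between the cells of Undefined and the immune cells of the same library. Kap made up 34.6% of the proximal tubule UMIs of Undefined in Bonn IM and 65.2% of those in its other clusters. In Bonn IM it was 61.5% in resident macrophages and 67.4% in lymphocytes, and it ran from 50 to 82.1% over the 14 clusters. In contrast, Miox made up 10.2% of these UMIs in Undefined and 2.67% outside, Ttc36, a small repeat protein of liver and kidney, 6.36 and 1.69%, Slc34a1 5.75 and 2.14%, and Keg1 5.84 and 2.10%. Gpx3 fell between, with 15.1 and 10.2%. Slc27a2, a fatty acid carrier and CoA ligase, made up 3.48 and 4.40%. The immune cells outside Undefined had a Kap share of 56.9% in Bonn OM but of 17.8% in Bonn cortex. It was 17.6 to 24.5% in the Aachen libraries and 9.38 to 15.0% in the Hamburg libraries. Thus Kap dominated in the medullary Bonn libraries and not elsewhere among the 9. The part of free RNA, of fragments of cells and of mixed droplets in these values was not tested.

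The Hamburg values had a property of their own. Nearly all of them lie a little below a whole number, and the distance, summed over cells and divided by the rounded-up count, is called the shortfall of a gene here. Over 12924 genes with 20 or more rounded-up counts its median was 2.72%. It was 33.6% for the 34 nephron transcripts together. Of 27 nephron transcripts with enough counts 23 had a shortfall above 30%, against 0.642% of the 12924 genes (83 genes). Slc34a1 had the largest of all genes, 62.6%, and Lrp2, with 59.7%, was the third. Fbp1, an enzyme of gluconeogenesis, reached 56.2%, Kap 45.0%, Gpx3 38.9% and Umod 37.9%. Segments beyond the proximal tubule shared it, such as S100g with 41.0%. A further list of 25 proximal tubule genes had a median of 36.1% over the 11 with enough counts, and 6 of these exceeded 30%. The macrophage, T cell and B cell markers had medians of 1.78, 1.52 and 1.58%. The distance of a value from the next whole number is always less than a whole UMI. A gene with many UMIs per cell, such as C1qa, can therefore only have a small shortfall. The comparisons with all genes and with the markers were not matched for UMIs per cell. What made the values smaller was not given in the sources used here, so Hamburg levels of tubule genes are those after this reduction.

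Of the 27, 4 transcripts had a shortfall under 30%: Slco4a1 with 2.89%, at the 57.8th percentile of all genes, Aqp3 with 5.21%, Klk1 with 17.1% and Cldn10 with 20.3%. The levels of these 4 by cluster follow. They were singled out after their values had been seen and have no test. Klk1 had many UMIs per cell in pDC, 290 in 27 Hamburg cells, which bounds its shortfall. In B_cell_1 of Hamburg, by contrast, 27 cells with Klk1 held 12.5 UMIs. The shortfall of Klk1 outside pDC was not computed, so its pooled value does not set it apart from the other transcripts.

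**Figure D4:**
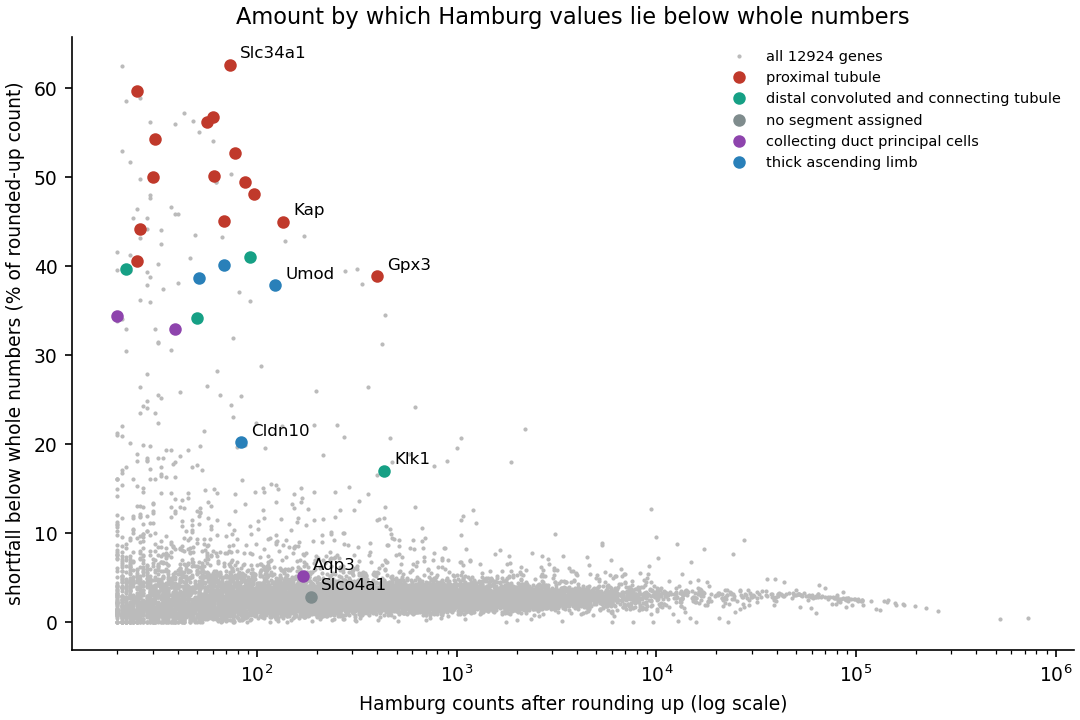
Shortfall of each gene in the Hamburg cells (percent of the rounded-up count) against its rounded-up count (log scale) for 12924 genes (grey) and the 27 nephron transcripts with 20 or more counts (coloured by segment). Most nephron transcripts lie above 30%, while Slco4a1 and Aqp3 lie within the band of other genes and Klk1 and Cldn10 lie at 17.1 and 20.3%.

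Klk1, Slco4a1 and Aqp3 were found in specific immune cells at 2 facilities. Klk1 (chr7:44225360-44229618, mm10) encodes tissue kallikrein, a protease that the connecting tubule secretes. In pDC it had 479 UMIs in 48 Bonn cells and 290 in 42 Hamburg cells, or 9979 (9105 to 10914) and 6906 (6134 to 7748) per 1000 cells. A Klk1 UMI was found in 34 of the 48 and 27 of the 42 pDC, with median depths of 7544 and 7395 UMIs. In B_cell_1 it was 2 of 1624 Bonn cells and 27 of 1134 Hamburg cells, at median depths of 2747 and 2548. In the pDC of Hamburg cortex, OM and IM it was 9689, 5538 and 3158 per 1000 cells, with 19, 14 and 9 cells. In those of Bonn it was 10279, 2000 and 11000, with 43, 2 and 3 cells, so IM was the lowest at Hamburg and the highest at Bonn. Of 9 Aachen pDC 1 had a Klk1 UMI, at a median depth of 2811. Klk1 has close relatives in the mouse, the Klk1b genes, and reads could not be split here by the copy they came from. Only 0.687% of its UMIs lay in Undefined.

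Slco4a1 (chr2:180456245-180474867) was likewise highest in pDC, with 729 (508 to 1014) UMIs per 1000 Bonn cells and 1074 (784 to 1436) per 1000 Hamburg cells, and it had no UMI in Undefined. B_cell_2 cells of Hamburg had 278 (189 to 396) per 1000. Macrophage_1 and Macrophage_3 cells of Bonn had 103 and 106 per 1000, against 3.51 in Macrophage_2. Aqp3 (chr4:41092722-41098183), the water and glycerol channel of the basal side of principal cells, was highest in T_cell_4. It was found in 23 of 41 Bonn cells and 36 of 74 Hamburg cells of this cluster, 976 (697 to 1329) and 667 (494 to 881) UMIs per 1000 cells. Bonn cortex had 1130 (738 to 1656) and Bonn IM 625 (299.7 to 1149) per 1000, with 23 and 16 cells, and the 2 cells of Bonn OM held 4 UMIs. At Aachen 1 UMI was found in 46 T_cell_4 cells. In B_cell_1 it was 6.16 and 4.67 per 1000 cells. Cldn10, a tight junction protein of thick limb and proximal tubule, was highest in Undefined, with 56 UMIs in 43 Bonn cells, 1302 (984 to 1691) per 1000. In named clusters it was low, 20.9 and 23.4 UMIs per 1000 B_cell_1 cells of Bonn and Hamburg and 23.3 and 26.0 per 1000 T_cell_3 cells. In comparison, Kap had 5 UMIs in the 48 Bonn pDC, all of them in the 3 pDC of Bonn IM, and 0 in the 42 Hamburg pDC.

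**Figure D5:**
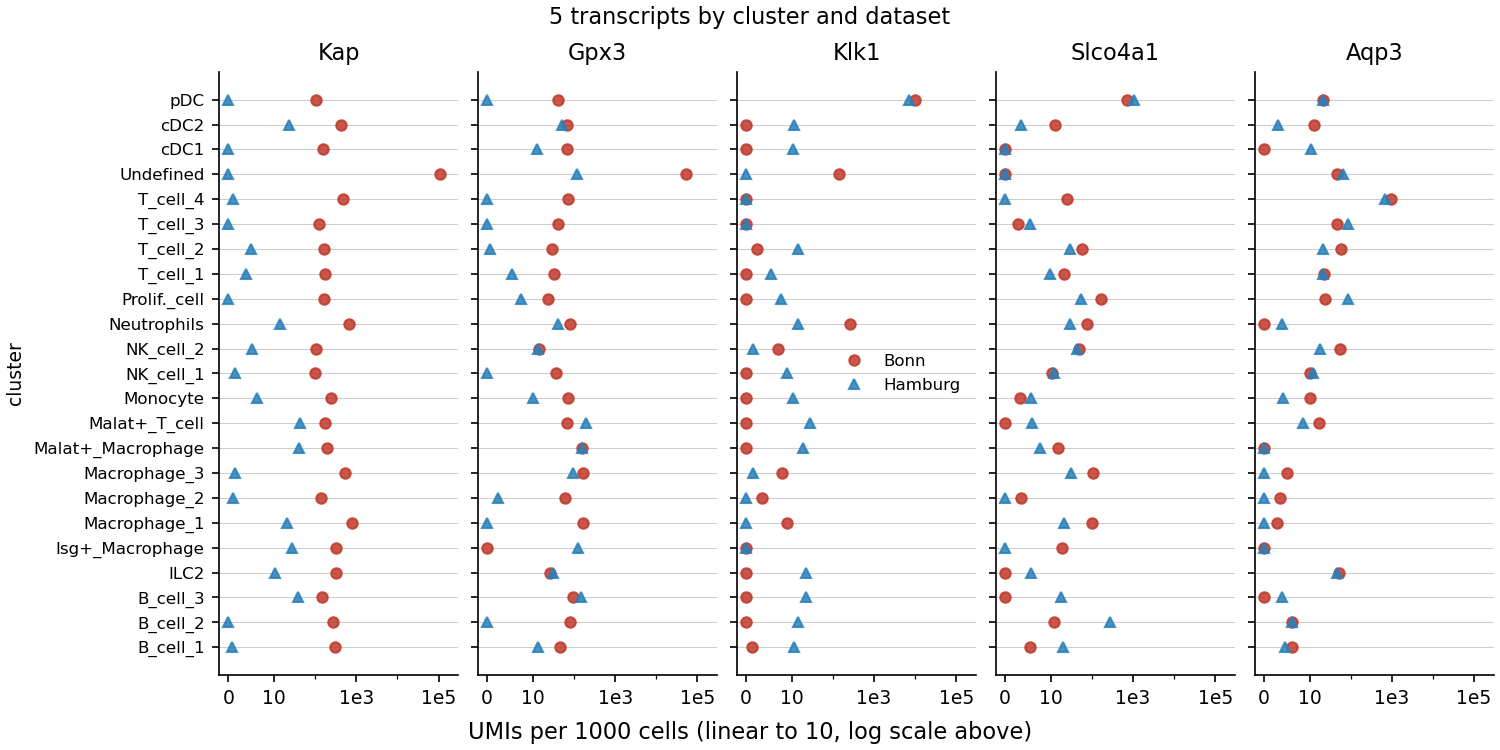
UMIs per 1000 cells (linear to 10, log scale above) of Kap, Gpx3, Klk1, Slco4a1 and Aqp3 in each of the 23 clusters in Bonn (circles) and Hamburg (triangles). Kap and Gpx3 of Bonn peak in Undefined, Klk1 and Slco4a1 peak in pDC in both datasets, and Aqp3 peaks in T_cell_4 in both.

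The rest of the Hamburg proximal tubule signal was concentrated in shallow clusters. The 2 Malat+ clusters and B_cell_3, grouped after their values had been seen, held 13.4% of the Hamburg cells outside Undefined but 49.6% of the proximal tubule UMIs, with 357 (320 to 397) UMIs per 1000 cells against 56.3 (50.4 to 62.6) in the other 19 clusters. Their median depth was 935 UMIs against 3179. At Bonn the same clusters had 476 (387 to 579) against 463 (446 to 481) per 1000 cells, and at Aachen 74.7 (54.0 to 101) against 44.8 (39.9 to 50.3). Of the 43 Aachen UMIs 20 came from the Malat+_Macrophage cell of Aachen IM described above, and without it the level was 40 (25.4 to 60.0), below that of the other clusters, an alternative chosen after seeing the data. At Hamburg Gpx3 was led by Malat+_T_cell with 192 UMIs per 1000 cells and Kap by the same cluster with 43.7. At Aachen 3 proximal tubule genes led outside Undefined, Gpx3 with 128 UMIs, Cyp2e1 with 82 and Kap with 69. The Cyp2e1 UMIs lay in 17 clusters, 24, 31 and 27 of them in cortex, OM and IM. Fxyd4, a regulator of the sodium pump in the collecting duct, had 37 Aachen UMIs outside Undefined and 6 at Bonn.

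Of the less abundant transcripts, 11 had fewer than 100 UMIs over all cells. Aqp1 (93.2 UMIs), Slc5a2 (73.5) and Cubn (45.4), the partner of megalin, lay mostly in Undefined, with 77.9, 73.5 and 83.7%. Slc12a3, the thiazide-sensitive salt carrier of the distal convoluted tubule, had 73.9 UMIs, of which 3.42% were in Undefined, and Egf 63.7 UMIs with 1.97%. Slc12a1 had 43.3 UMIs, Atp6v1g3 37.5 and Calb1 29.3. Hsd11b2, the enzyme that keeps cortisol off the mineralocorticoid receptor of principal cells, had 6.35 UMIs, and Pvalb of the distal convoluted tubule 1.64. At Aachen 11 of the 34 transcripts were listed at 0 in all 3 libraries, at Bonn 1 (Pvalb) and at Hamburg 0.

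Whether compartments differ in these transcripts was compared over the 9 libraries, with the dataset as block, by the quasi-likelihood test of edgeR on summed counts and Benjamini-Hochberg adjustment over all genes tested (n = 3 libraries per compartment). In the sums over all cells 29 of the 34 transcripts passed the filter on low counts, and Slc5a2, Slc12a1, Pvalb, Calb1 and Hsd11b2 did not. In such sums, fewer cells of a type and less RNA per cell cannot be told apart. Between OM and cortex 0 of the 29 differed (0% of 13358 genes called), with 3 at an unadjusted p under 0.05, and DESeq2 called 0. Between IM and cortex 0 of 29 passed (0% of all genes called) and DESeq2 called 0. In this comparison 24 of the 29 were higher in IM, with a median log2 difference of 2.47 against 0.00 for all genes, and 16 of 29 had an unadjusted p under 0.05, against 5.26% of all genes. Akr1c21 had the smallest adjusted p, 0.757, with a log2 difference of 3.20 ± 0.56 (SE) in IM, and Klk1 was lower in IM by a log2 difference of -2.18 ± 0.47 (SE, adjusted p = 0.89, edgeR). Most Klk1 UMIs lay in pDC. Bonn cortex and IM had 43 and 3 pDC with 10279 and 11000 Klk1 UMIs per 1000. Hamburg cortex and IM had 19 and 9 with 9689 and 3158. The part of pDC number in this difference was not tested. Of the 16, 14 were proximal tubule genes. Akr1c21 had 88, 37 and 657 UMIs in Bonn cortex, OM and IM, 6, 2 and 15 at Aachen and 2.76, 6.02 and 5.39 at Hamburg. These transcripts share cells, so the 16 are not independent results. In Bonn IM 28 cells of Undefined held 12360 of the 15030 nephron UMIs. Of all Akr1c21 UMIs 88.7% lay in Undefined, and 11 of the 15 of Aachen IM came from 1 cell. Between OM and IM 0 of 29 differed (0.00749% of genes called), with 6 at an unadjusted p under 0.05 and 0 by DESeq2.

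In resident macrophages, only Kap, Gpx3 and Slco4a1 of the 34 had enough counts to be tested. Kap per 1000 resident macrophages was 12.1, 5.64 and 18.5 UMIs in Aachen cortex, OM and IM, 22.3, 89.3 and 844 at Bonn, and 2.52, 6.91 and 38.4 at Hamburg. IM was the highest compartment in each dataset, and Bonn IM lay far above the rest. Within Bonn, the ratio of IM to cortex was 37.9 (95% counting interval 21.5 to 73.8), and at Aachen it was 1.53 (0.517 to 5.02). At Hamburg the cortex had 0.586 UMIs, and 8.78 of the 9.95 UMIs of IM came from 1 Macrophage_1 cell. With all datasets, Kap was higher in IM than in cortex by a log2 difference of 4.36 ± 0.49 (SE, adjusted p = 0.00239, edgeR), 1 of 3 tested transcripts against 0.196% of 8687 genes called. The call was lost without the Bonn IM library (log2 difference 2.49), without the Hamburg libraries (4.33) and with DESeq2 (3.32). The difference of Gpx3 was 1.58 ± 0.36 (SE, adjusted p = 0.105, edgeR), with 28, 8 and 119 UMIs in Bonn cortex, OM and IM.

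The macrophage clusters took different shares of the compartments. Of 539 resident macrophages of Bonn cortex 449 were Macrophage_2, while Bonn OM held 30, 54 and 72 and Bonn IM 285, 67 and 277 cells of Macrophage_1, 2 and 3. At Aachen Macrophage_3 had 873 cells in OM and 7 in IM. The part of this makeup in the values of resident macrophages, Slco4a1 with its low level in Macrophage_2 of Bonn included, was not tested.

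Slco4a1 was the only one of the 3 called between OM and cortex in resident macrophages, with a log2 difference of 4.72 ± 1.03 (SE, adjusted p = 0.0468, edgeR), against 0.852% of 8687 genes called. It passed the filter on low counts only through libraries of OM and IM, where it is high. The call therefore cannot be set against the share of all genes. It had 0, 15 and 0 UMIs in the resident macrophages of Aachen cortex, OM and IM, 0, 14 and 65 at Bonn, and 1.86, 8.59 and 4.71 at Hamburg. Over all cells Slco4a1 was listed at 0 in 2 libraries, Aachen cortex and Aachen IM. As stated above, a gene may be listed at 0 at Aachen because too few cells held it, so these zeros are not measured levels. In Bonn the cortex count of 0 in 539 cells allows up to 5.57 UMIs per 1000 cells. OM with 83.3 and IM with 101 per 1000 were 15.0-fold and 18.2-fold this limit of 3 UMIs. Both ratios leave out the counting error of OM and IM, so they are not lower bounds. At Hamburg the ratio of OM to cortex was 2.21, and 2.16 (0.447 to 20.6) on rounded-up counts, an interval that includes no difference. The fitted log2 difference rests on 1.86 cortex UMIs in all and depends on how zeros are handled. The call was lost without Hamburg (log2 difference 7.94, adjusted p = 0.0943, edgeR) and with rounded-up Hamburg values (4.73, adjusted p = 0.053, edgeR). It was not made either with DESeq2, without Bonn, on thinned cells, without the dataset block or without cells holding 5 or more nephron UMIs, where no adjusted p was obtained for Slco4a1. For IM against cortex the difference was 4.47 ± 1.0 (SE, adjusted p = 0.0995, edgeR). Between OM and IM 0 of 3 passed (0% of 8687 genes called), with 2 at an unadjusted p under 0.05 and 0 by DESeq2. There, Kap differed by -2.70 ± 0.44 (SE, adjusted p = 0.174, edgeR).

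Lymphocytes of the same libraries were compared in the same way. Kap per 1000 lymphocytes was 17.4, 9.38 and 4.85 UMIs in Aachen cortex, OM and IM, 13.9, 116 and 907 at Bonn, and 4.87, 1.41 and 6.64 at Hamburg. The ratio of IM to cortex was 65.0 (45.6 to 95.8) at Bonn but 0.278 (0.0758 to 0.869) at Aachen, so the direction was not the same in the datasets. Of 10 transcripts tested in lymphocytes 0 passed between IM and cortex (0% of 11023 genes called), with 1, Kap, at an unadjusted p under 0.05 (log2 difference 4.94 ± 0.86 SE, adjusted p = 0.192, edgeR), and DESeq2 called 0. Between OM and cortex 0 of 10 passed (0.481% of genes called), with Slco4a1 at an unadjusted p under 0.05 (1.76 ± 0.61 SE, adjusted p = 0.261, edgeR), and 0 by DESeq2. Between OM and IM 0 of 10 passed (0.0181% of genes called), with 1 at an unadjusted p under 0.05 and 0 by DESeq2.

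Whether resident macrophages and lymphocytes differed in their compartment difference was tested as an interaction with the library as block. Of 7 transcripts tested 0 passed for OM against cortex (0% of 10868 genes called), with 0 at an unadjusted p under 0.05. For IM against cortex 0 of 7 passed as well (0% of genes called), and 1, Slco4a1, had an unadjusted p under 0.05, with 2.98 ± 1.09 (SE, adjusted p = 1, edgeR). DESeq2 called 0 in both. For Kap the interaction was 0.20 ± 0.87 (SE, adjusted p = 1, edgeR) in IM against cortex. A difference of Kap between macrophages and lymphocytes in their difference between IM and cortex was therefore not shown, which does not show that it is equal.

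The datasets differed more than the compartments. With the compartment as block, 19 of 29 transcripts differed between Bonn and Aachen in all cells, against 51.3% of 13358 genes called. Each facility is 1 dataset whose compartments stood in for replicates. The p-values between facilities therefore do not measure how far repeated datasets of 1 facility would vary. Of the 29, 16 were higher and 3 lower at Bonn. Of the 22 with UMIs at Aachen, 10 were higher and 3 lower, with a median log2 difference of 1.71, against 0.18 for all genes. The other 7 were listed at 0 at Aachen and 6 of them were called higher. Keg1 was higher at Bonn by 3.90 ± 0.64 (SE, adjusted p = 0.00139, edgeR), with 123, 49 and 767 UMIs in Bonn cortex, OM and IM and 1, 0 and 12 at Aachen. The 3 lower at Bonn were collecting duct genes: Fxyd4 by -5.17 ± 0.73 (SE, adjusted p = 0.000647), Aqp2 by -4.14 ± 1.5 (SE, adjusted p = 0.0479) and Atp6v1g3 by -4.23 ± 1.12 (SE, adjusted p = 0.0135). Of the 78 Aqp2 UMIs of Aachen 75 came from the 1 OM cell described above, which also held 21 of its 58 Fxyd4 UMIs. Of its 22 Atp6v1g3 UMIs 13 came from the 1 cortex cell described above. Without Undefined 6 of the transcripts were called.

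Between Hamburg and Bonn 12 of 29 transcripts differed, against 20.5% of genes called, all 12 lower at Hamburg, and all 12 of the proximal tubule. Akr1c21 was lower by -5.31 ± 0.58 (SE, adjusted p = 0.000834, edgeR) and Kap by -5.59 ± 0.85 (SE, adjusted p = 0.00371, edgeR), with 21.4, 23.8 and 29 Kap UMIs in Hamburg cortex, OM and IM against 361, 283 and 5823 at Bonn. The reduction of Hamburg values described above acts in the same direction, and its part was not tested. Without Undefined 1 transcript was called.

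Further lists of kidney genes were read in the same fits. Of all genes tested, 51.3% were called for Bonn against Aachen and 20.5% for Hamburg against Bonn. In resident macrophages 0.852% were called for OM and 0.196% for IM against cortex. Counts near these shares say nothing particular about a list. Of 25 other proximal tubule genes 15 were tested in all cells, 12 were higher and 1 lower at Bonn than at Aachen, and 5 were lower at Hamburg than at Bonn, such as Gatm, an enzyme of creatine synthesis (-1.23 ± 0.22 SE, adjusted p = 0.00772, edgeR). In resident macrophages Fxyd2, the gamma subunit of the sodium pump, was higher than in cortex in OM (4.17 ± 0.60 SE, adjusted p = 0.00784, edgeR) and in IM (3.61 ± 0.61 SE, adjusted p = 0.0333, edgeR). Igfbp5, an insulin-like growth factor binding protein found in collecting duct and stroma, was higher in IM (5.50 ± 0.95 SE, adjusted p = 0.0333, edgeR). Fxyd2 was the only one called of 3 tested loop genes, and Igfbp5 was the 1 tested of 16 collecting duct genes. In all cells Igfbp5 was lower at Hamburg than at Bonn by -6.02 ± 0.90 (SE, adjusted p = 0.00345, edgeR). For Fxyd2 it was -2.67 ± 0.80 (SE, adjusted p = 0.0491, edgeR). The alternatives were not read for these 2 genes, and how far their calls rest on 1 dataset was not tested. Between Bonn and Aachen 1 of 6 loop genes, 1 of 8 endothelial genes (Emcn) and 2 of 2 red cell genes tested were lower, 1 of 3 collecting duct genes was higher, and of 3 general epithelial genes Cdh1 was higher and Spp1 lower. At Hamburg against Bonn, 1 loop gene, 2 collecting duct genes and 1 of 2 stromal genes (Mgp) were lower. None of the tested podocyte, distal or urothelial genes was called in any of these comparisons: 1, 1 and 0 were tested in all cells.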

How the data were processed

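Male C57BL/6J kidneys were dissected, digested and sorted for CD45 by the authors, who mapped droplet reads with Cell Ranger to mm10 and clustered and named the cells with Seurat, per the labels. The deposited table holds, per cell, the compartment, facility and cluster and expected counts of UMIs per gene, made by the authors without scaling to depth; they are whole at Aachen and Bonn and mostly not whole at Hamburg, where they were taken as deposited and rounded after summing. Cells in it had 201 to 3999 genes and at most 9.12% mitochondrial UMIs. No value column was left without a sample, and each compartment of a dataset was 1 library; the Aachen ones hold 2 barcode suffixes each. Nothing in the sources says that these are separate animals, so p-values of the compartment and interaction fits measure the spread between 3 datasets. Those of the dataset fits measure the spread among the compartments of a facility, which are not replicates of that facility.

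Counts were summed per library over all cells, resident macrophages (Macrophage_1 to 3 and Isg+_Macrophage) or lymphocytes (T and B cell clusters), filtered with filterByExpr, scaled by TMM and tested with glmQLFit and glmQLFTest of edgeR 4.0.16 in R 4.3.3, adjusted over all genes tested with a threshold of 0.05. DESeq2 1.42.0 was an alternative. Compartment fits had the dataset, dataset fits the compartment and the interaction the library as block. The fits were tested on simulated data. Shares have exact binomial and levels exact Poisson intervals of 95%; thinning drew 500 UMIs per cell with a fixed seed. No doublet caller was run. Promoters and motifs come from RefSeq (GRCm38.p6).

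Every one of the 34 transcripts is accounted for, in full where it had 100 or more UMIs (23) and by count otherwise (11). From the other lists, up to 3 called genes per comparison were eligible to be named. The 34 transcripts and the lists were chosen with earlier results of these data known.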

Additional observations from a re-analysis of the deposited data

How the results depend on the processing

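Counts of called transcripts kept within 1.5 times of the reported ones in 118 of 152 values, and the log2 difference of called transcripts kept direction and call in 240 of 321. In most of the 13 comparisons the reported count was 0, and 0 again counted as kept. Called transcripts without an adjusted p in an alternative were left out of the 321. Of 33 called, 20 entered without cells of 5 or more nephron UMIs, 17 on thinned cells and 25 without Undefined. These values therefore overstate how stable the calls were. Leaving out the cluster Undefined or the Bonn IM library was chosen after seeing the data; the other alternatives were listed earlier.

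OM against cortex in resident macrophages (1 called) gave 0 with DESeq2, with rounded-up Hamburg values, on thinned cells, without cells of 5 or more nephron UMIs and without the dataset block, 2 with every gene of 1 or more counts, and 0 to 1 when 1 dataset was left out. IM against cortex in resident macrophages (1 called) gave 0 with DESeq2, on thinned cells, without the dataset block and without the Bonn IM library, 4 with every gene, and 0 to 3 when 1 dataset was left out: 3 without Aachen and 0 without Bonn or Hamburg. Where the reported count was 0, every gene of 1 or more counts gave 2 (OM against cortex, lymphocytes), 5 (IM against cortex, lymphocytes), 1 (OM against IM, resident macrophages) and 1 (OM against IM, lymphocytes); thinned cells gave 1 for IM against cortex in lymphocytes, and OM against IM in resident macrophages gave 0 to 1 when 1 dataset was left out.

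Bonn against Aachen (19 called) gave 10 on thinned cells, 5 without cells of 5 or more nephron UMIs, 6 without Undefined, 10 without the Bonn IM library and 8 to 17 when 1 compartment was left out, 8 without IM and 9 without OM. Hamburg against Bonn (12 called) gave 3, 1, 1 and 5 under the same alternatives and 4 to 14 when 1 compartment was left out, 4 without IM and 6 without OM. Miox, higher at Bonn than at Aachen, reversed without Undefined, with a log2 difference of -0.49. The cause was not tested, other than that fewer cells or samples enter. TMM against total counts changed the call of 1 transcript.

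Shares of cells with a UMI moved most on thinning, in 92 of 108 values. The labels give 1 sample per compartment and no shared replicate numbers; the dataset stood as block in the compartment fits. At Aachen, with a median of 887 UMIs per cell, small differences may not have been detectable.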
